A study of Rattus norvegicus with 18 samples.

Results

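The genes described here are 43 rat genes of the interferon response and of antigen processing, listed by symbol and found on the arrays through the annotation of each probe. They were divided into 21 antiviral effectors, 13 signalling factors and 9 antigen processing genes. The larger array design measured 37 of them, among 12198 genes in all. Of these 37, 30 passed the filter on level and were tested, among 9953 genes tested: 13 antiviral effectors, 8 signalling factors and all 9 antigen processing genes. The smaller design measured 25 of them, among 6455 genes. The list was not chosen from measured differences, but earlier results of these data were known when it was drawn up.

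The cells were cardiomyocytes, which make heart muscle contract, from rat ventricles of day 1 (n = 24), purified on Percoll density gradients. The 5 groups were cells whose cardiac medium was diluted to 50% with hESC medium conditioned by stem cells, held for 24 h or 48 h, cells diluted in the same way with unconditioned hESC medium and held as long, and a time zero group taken from cardiac medium before any dilution. Serum was the same in both media, with FBS at 5% and HS at 10%, and no genotype or strain was given. The 18 samples comprised 3 of each medium at each time and 6 of time zero; 12 were hybridised to the larger 1-colour CodeLink design (2 of each medium group, 4 of time zero) and 6 to the smaller one. The stem cells that conditioned the medium are not described in the labels, the design text describes 1 harvest of ventricles, and time zero differs from every medium group in both medium and days in culture. The labels name no separate preparations, and p-values therefore reflect the spread among these arrays, which may be technical.

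Interferons are secreted signals of infection. Type I interferons act through their receptor and the kinases JAK1 and TYK2 on a complex that contains STAT2 and IRF9 and binds the interferon-stimulated response element (ISRE), while the response to interferon gamma runs through the gamma-activated site (GAS). Their targets include effectors that block viral replication, factors that amplify or end the signal, and the machinery that cuts proteins into peptides and loads them onto class I molecules at the cell surface.

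The promoters of the genes were searched for the letters of both elements, on both strands, in windows of 300 bases (250 before and 50 after the gene start) from RefSeq on the rat build GRCr8. The letters were GAAA and GAAA separated by any 2 bases for the ISRE, and TTC and GAA separated by any 3 bases for the GAS, and the search allowed matches to overlap. A window was found for 37 of the 43 genes; Isg15, Mx2, Ifit1, Ifit2, Dhx58 and Usp18 had none. The ISRE letters occurred in 24 of the 37 windows (64.9%), against 1040 of all 27456 promoters (3.79%). They occurred in 13 of 17 effectors, 7 of 9 antigen processing genes and 4 of 11 signalling factors. The GAS letters occurred in 11 of the 37 (29.7%), against 2387 of all promoters (8.69%). The letters describe the windows and are not evidence of binding. The windows below belong to members that were higher on every conditioned than on every unconditioned array and hold the ISRE letters (Ifit3, Irf7, Lgals3bp, Parp14, Psme2), and to Psmb8, which rose against time zero. Each is written 5′ to 3′ on the strand of its gene, with ISRE and GAS letters in capitals.

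Ifit3 promoter, chr1:241527076-241527375, plus strand: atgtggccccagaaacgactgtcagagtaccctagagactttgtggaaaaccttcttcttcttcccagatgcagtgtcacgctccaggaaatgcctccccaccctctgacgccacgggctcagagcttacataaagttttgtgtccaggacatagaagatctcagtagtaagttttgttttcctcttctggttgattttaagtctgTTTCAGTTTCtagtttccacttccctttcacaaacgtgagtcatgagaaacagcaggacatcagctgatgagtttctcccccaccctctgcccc
Irf7 promoter, chr1:205799974-205800273, minus strand: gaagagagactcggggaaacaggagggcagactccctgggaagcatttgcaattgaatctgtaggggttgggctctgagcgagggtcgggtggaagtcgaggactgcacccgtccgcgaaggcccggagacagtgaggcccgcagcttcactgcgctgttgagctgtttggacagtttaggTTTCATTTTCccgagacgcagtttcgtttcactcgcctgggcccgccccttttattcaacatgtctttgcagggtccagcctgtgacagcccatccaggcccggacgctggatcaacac
Lgals3bp promoter, chr10:104127799-104128098, minus strand: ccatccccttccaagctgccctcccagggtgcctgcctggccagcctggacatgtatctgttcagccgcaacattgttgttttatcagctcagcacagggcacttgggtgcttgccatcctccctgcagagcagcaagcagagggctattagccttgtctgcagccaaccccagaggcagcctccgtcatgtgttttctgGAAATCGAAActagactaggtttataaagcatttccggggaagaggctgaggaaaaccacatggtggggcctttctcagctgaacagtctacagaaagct
Parp14 promoter, chr11:78407884-78408183, plus strand: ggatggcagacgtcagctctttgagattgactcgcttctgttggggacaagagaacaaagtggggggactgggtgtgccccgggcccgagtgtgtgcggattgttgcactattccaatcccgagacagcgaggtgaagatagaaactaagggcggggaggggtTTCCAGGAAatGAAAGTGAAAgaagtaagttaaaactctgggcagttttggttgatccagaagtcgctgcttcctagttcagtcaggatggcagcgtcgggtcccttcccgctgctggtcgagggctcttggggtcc
Psme2 promoter, chr15:33052702-33053001, minus strand: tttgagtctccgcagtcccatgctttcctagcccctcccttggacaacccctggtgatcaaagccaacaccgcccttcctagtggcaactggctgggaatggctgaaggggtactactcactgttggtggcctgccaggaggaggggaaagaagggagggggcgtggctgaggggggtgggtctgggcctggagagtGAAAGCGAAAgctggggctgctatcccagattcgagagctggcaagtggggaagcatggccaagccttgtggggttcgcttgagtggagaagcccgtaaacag
Psmb8 promoter, chr20:4656982-4657281, minus strand: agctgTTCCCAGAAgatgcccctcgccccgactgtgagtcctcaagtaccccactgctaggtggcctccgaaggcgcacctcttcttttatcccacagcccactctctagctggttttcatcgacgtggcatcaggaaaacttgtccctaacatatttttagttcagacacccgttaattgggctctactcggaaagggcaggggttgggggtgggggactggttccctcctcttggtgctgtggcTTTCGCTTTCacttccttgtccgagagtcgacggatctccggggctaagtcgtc

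In Ifit3, Irf7 and Psmb8 the ISRE letters lie on the opposite strand and therefore read as their reverse complement. The match starts at position -44 from the gene start in Ifit3, -50 in Lgals3bp, -53 in Psme2, -69 in Irf7, -76 in Parp14 and -4 in Psmb8. Parp14 and Psmb8 also hold GAS letters, at -87 and -245. The windows of Oasl and Irf8, the other 2 members higher on every conditioned array, held no ISRE letters, and that of Irf8 held 2 matches to the GAS letters. Among tested members, the 15 with ISRE letters had a median medium effect of 0.42 on the log2 scale, 14 of them above the median of all probes, and the 9 without had a median of 0.11, with 6 above. No test was made of this split. Ifit3, with ISRE letters, and Oasl, without, passed the filter on level only through their conditioned arrays.

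Intensities are given after each array was scaled to a common median. Changes are log2 differences ± SE relative to the median difference over all probes of that comparison, and adjusted p-values are those of limma over 23694 probes, for the difference before that median was subtracted. That median lay between -0.09 and 0.19 in every comparison and was 0.09 for the medium over both times and 0.18 for the medium at 48 h. Values under 0.05 of the table median (an intensity of 4.84) were set to that floor before logs were taken. Replicates 4 and 5 of time zero and replicate 2 of unconditioned medium at 48 h stood apart on the first principal component (35.1% of the variance) and had quartile ratios of 22.4 to 25.7, against 38.7 to 47.8 on the other 9 arrays. All 10 measured cardiomyocyte markers passed the filter on level, and none of them was called in any comparison.

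Conditioned against unconditioned medium was the comparison named by the title of the series, which asks about factors secreted by stem cells. Over both times, genes of the interferon response and of antigen processing were mostly higher in conditioned medium, but no single one passed the test. Of the 30 tested members 24 had a difference above the median of all probes, with a median of 0.35 (n = 4 arrays against 4). Among all genes tested, 55.2% did so, with a median of 0.05. limma called 0 of the 30 at an adjusted p under 0.05, against a background of 0.683% of genes called higher and 0.352% called lower, and 6 of 30 had an unadjusted p under 0.05, against 10.7% of genes. In 7 of 30 members all 4 conditioned arrays lay above all 4 unconditioned arrays, against 9.81% of genes, and no member showed the opposite order, against 2.3% of genes. The filter on level used the mean log2 value over all 12 arrays, at an intensity of 16.5. Ifit3 and, by a narrow margin, Oasl passed it only through their conditioned arrays. Their places in these counts therefore rest partly on the values compared. Without the 3 arrays that stood apart, the members' median was 0.22, with 20 of 30 above.

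The mean of the 30 members on each array, as a log2 difference from the median of that array, separated the media. It was -0.32 and -0.28 with conditioned medium at 24 h, against -0.60 and -0.56 with unconditioned medium. It was -0.14 and -0.10 with conditioned medium at 48 h, against -0.57 and -0.47 with unconditioned medium. The 4 arrays of time zero, at -0.78, -0.33, -0.54 and -0.63, overlapped the unconditioned arrays and lay below all conditioned ones, and the highest of them was replicate 4, one of those that stood apart.

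**Figure D1:**
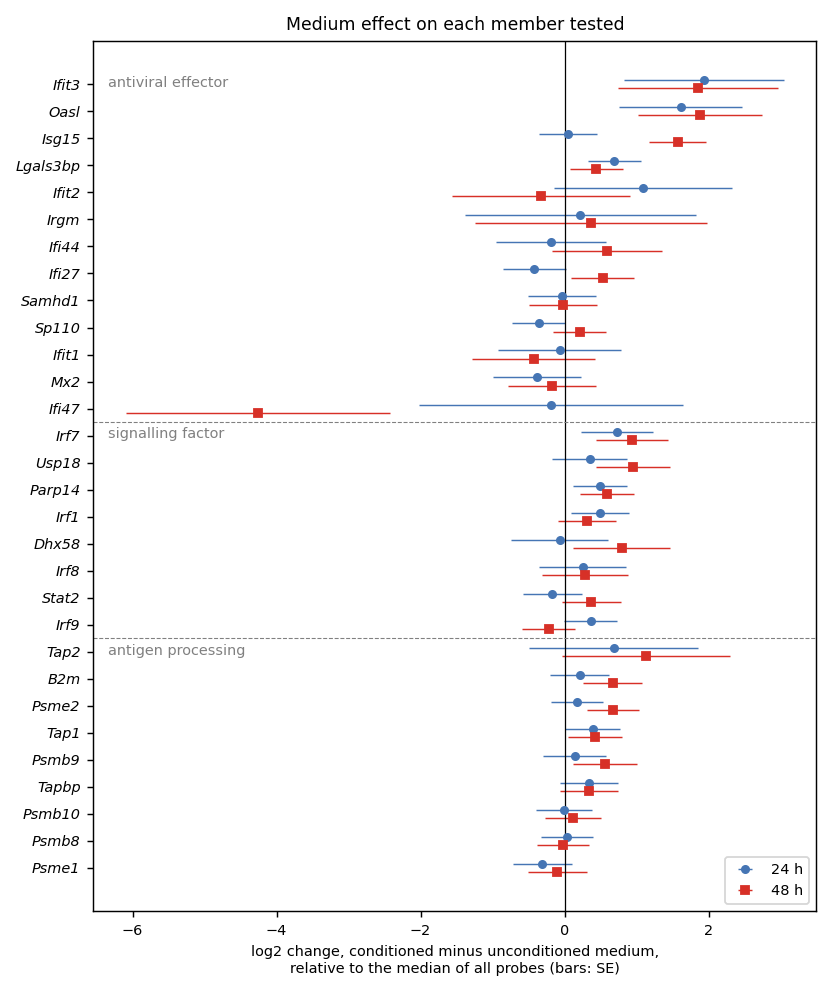
Change of each of the 30 tested members with conditioned against unconditioned medium at 24 h (circles) and at 48 h (squares), as a log2 difference relative to the median of all probes; bars are SE, and members are grouped by role. Ifit3 and Oasl lie far above 0 at both times, Isg15 at 48 h (1.57) but not at 24 h (0.05), and Ifi47 far below 0 at 48 h with a wide SE.

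Antiviral effectors held both the largest positive differences and the only large negative one. The group's median was 0.21, and 8 of 13 lay above that of all probes. Oasl encodes a 2′-5′-oligoadenylate synthetase-like protein of the antiviral response. It read 72.5 and 57.6 with conditioned medium at 24 h and 194 and 214 at 48 h, against 18.1 and 24.6 with unconditioned medium at 24 h and 41.5 and 57.2 at 48 h. The groups did not overlap, but the lowest conditioned array, of 24 h, lay close to the highest unconditioned array, of 48 h; within each time the media were well apart. The change was 1.75 ± 0.61 (adjusted p = 0.22), and it passed the test with the floor raised to 0.2 of the median (1.75, adjusted p = 0.022) and with a pseudocount in place of the floor (0.98, adjusted p = 0.025). The shares of all genes called under those alternatives are not given here.

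Ifit3, an RNA-binding effector of the interferon-induced tetratricopeptide family, showed the largest positive difference of the tested members. It passed the filter on level only through its conditioned arrays. It read 60.7 and 40.7 with conditioned medium at 24 h and 49.9 and 89.1 at 48 h, against 7.86 and 21.3 with unconditioned medium at 24 h and 12.7 and 21 at 48 h. All conditioned arrays lay above all unconditioned ones, and the change was 1.90 ± 0.79 (adjusted p = 0.34). Lgals3bp, a secreted galectin-binding glycoprotein induced by interferon, was abundant. Its intensities were 5308, 5384, 4334 and 4204 with conditioned medium, against 3465, 3138, 2116 and 3640 with unconditioned medium. It did not overlap either, with a change of 0.57 ± 0.26 (adjusted p = 0.33); quantile normalization (0.48, adjusted p = 0.037) and cyclic loess normalization (0.54, adjusted p = 0.02) brought it past the threshold, beside 2.77% and 4.84% of genes called higher under those settings. A dimmer second probe of Lgals3bp did not show the difference. It read 101, 93.9, 109 and 54.5 with conditioned medium, against 123, 78.1, 62.8 and 103 with unconditioned medium (-0.07 ± 0.42 in a fit without the filter on level), and the groups overlapped.

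Isg15 encodes the ubiquitin-like protein that is conjugated to other proteins after interferon. Its media were nearly equal at 24 h and lay far apart at 48 h. At 24 h it read 136 and 132 with conditioned medium, against 125 and 132 with unconditioned medium. At 48 h it read 545 and 519 with conditioned medium, against 127 and 196 with unconditioned medium. At 48 h both conditioned arrays stood far above every other array of the design. Over both times the change was 0.82 ± 0.28 (adjusted p = 0.18).

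The other effectors showed little or uneven differences. Ifi47, an interferon-inducible GTPase, had the lowest change (-2.22 ± 1.29, adjusted p = 0.61). It read 48.9, 17.8, 9.31 and 3.04 with conditioned medium, against 40.3, 27.9, 693 and 18.8 with unconditioned medium, so a single array, unconditioned 48 h replicate 2, held the high value. The only other high value was 1190 on time zero replicate 4, an array on which Mx2 (943), Irgm (340) and Ifit1 (145) were highest too. Mx2, a dynamin-like GTPase, was at -0.27 ± 0.43 (adjusted p = 0.93), Ifit1 at -0.24 ± 0.60 (adjusted p = 0.96) and Samhd1, a nucleotide hydrolase that restricts viruses, at -0.02 ± 0.33 (adjusted p = 0.97). Ifit2, Irgm, Ifi44, Ifi27 and Sp110 lay between -0.07 and 0.39. In a fit without the filter on level, a dimmer second probe of Samhd1 was at 0.53 ± 0.38 (adjusted p = 0.73) for the medium. Against time zero that probe was at 1.03 ± 0.38 at 24 h and 1.51 ± 0.38 at 48 h (adjusted p = 0.23 and 0.065). The brighter probe was at 0.02 ± 0.36 and 0.13 ± 0.36 there.

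Among effectors under the filter on level, Rsad2, which encodes viperin, an enzyme that makes a chain-terminating nucleotide, was chosen for mention after its values were seen. It read 13.8 and 25.6 with conditioned medium at 24 h and 50.4 and 38.6 at 48 h, against values under the floor on both unconditioned arrays of 24 h and on 1 of 48 h, and 8.96 on the other. At time zero 1 array read 13.4 and the others were under the floor. On the smaller design Rsad2 was under the floor on all 6 arrays. With no filter on level its medium effect on the larger design was 2.31 ± 0.43 (adjusted p = 0.083). Bst2, Gbp2, Gbp5, Mx1, Nmi and Ifi35 were the other members under the filter; Ifi35 was at the floor on all 12 arrays.

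**Figure D2:**
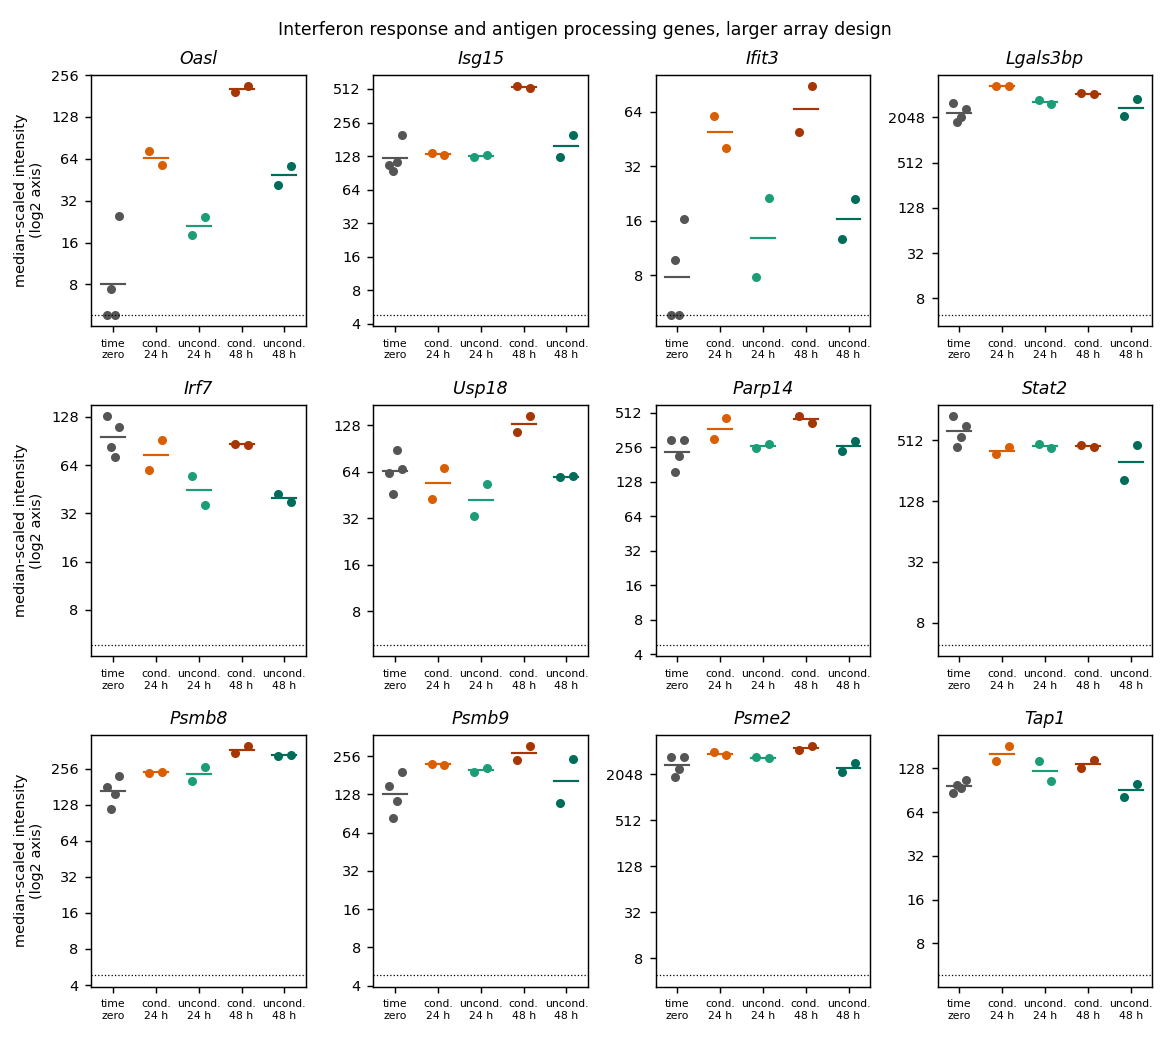
Median-scaled intensity of 12 members on each of the 12 arrays of the larger design (log2 axis), with time zero at the left and, within each time, conditioned left of unconditioned medium. Points are arrays, with values under the floor drawn at it, lines are group means of log2 values, and the dotted line is the floor of 4.84; Oasl and Ifit3 are higher on every conditioned than on any unconditioned array, and Isg15 stands high on both conditioned arrays of 48 h.

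All 8 tested signalling factors had changes above the median of all probes, from 0.08 to 0.83, with a median of 0.39. Irf7, the transcription factor that amplifies type I interferon production, read 59.9 and 91.6 with conditioned medium at 24 h and 86.5 and 85.6 at 48 h, against 54.8 and 36.1 with unconditioned medium at 24 h and 42.5 and 37.7 at 48 h. The arrays did not overlap, and the change was 0.83 ± 0.35 (adjusted p = 0.31). Time zero read 129, 83.4, 71.4 and 110, which overlapped the conditioned arrays and lay above every unconditioned one.

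Parp14, an ADP-ribosyltransferase that acts in STAT signalling, read 303, 460, 480 and 420 with conditioned medium, against 254, 274, 239 and 290 with unconditioned medium. These did not overlap (0.55 ± 0.27, adjusted p = 0.38). Its other probes disagreed with each other: with no filter on level, a dimmer probe was at 2.62 ± 0.70 (adjusted p = 0.23) and another at -0.07 ± 0.26. Irf8, a transcription factor best known in myeloid cells, read 76.5, 62.9, 61.1 and 81.4 with conditioned medium, against 60.4, 55.6, 45 and 58.9 with unconditioned medium; it was the third factor without overlap, by a narrow margin (0.27 ± 0.42, adjusted p = 0.83).

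Usp18, the protease that removes ISG15 and dampens the type I receptor, read 42.8 and 67.5 with conditioned medium at 24 h and 115 and 146 at 48 h, against 33 and 53.2 with unconditioned medium at 24 h and 58.9 and 60 at 48 h. Its media overlapped at 24 h and not at 48 h (both times 0.66 ± 0.37, adjusted p = 0.49). Stat2, a subunit of the ISRE-binding complex, was at 0.11 ± 0.29 (adjusted p = 0.88), a value that turned to -0.08 without unconditioned 48 h replicate 2. Irf1, Dhx58 and Irf9 were at 0.41, 0.37 and 0.08.

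Of the 9 antigen processing genes 8 had changes above the median of all probes, with a median of 0.36, and none had an unadjusted p under 0.05. Psme2, a subunit of the interferon-inducible PA28 activator of the proteasome, read 3967 and 3671 with conditioned medium at 24 h and 4277 and 4752 at 48 h, against 3439 and 3313 with unconditioned medium at 24 h and 2188 and 2858 at 48 h. It was the only one of the 9 without overlap (0.43 ± 0.25, adjusted p = 0.49). Its partner subunit Psme1 was at -0.20 ± 0.29 (adjusted p = 0.94).

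Tap1, a subunit of the transporter that carries peptides into the endoplasmic reticulum, read 144, 181, 129 and 146 with conditioned medium, against 144, 104, 81.1 and 100 with unconditioned medium (0.42 ± 0.27, adjusted p = 0.54). B2m, the light chain of class I molecules, read 502, 513, 497 and 544 with conditioned medium, against 350, 540, 192 and 432 with unconditioned medium (0.45 ± 0.29, adjusted p = 0.54). In B2m the conditioned arrays were close together and 1 unconditioned array of 24 h lay among them, while unconditioned 48 h replicate 2 was the lowest. The catalytic subunits of the immunoproteasome had unequal values: Psmb9 was at 0.36 ± 0.31, Psmb10 at 0.07 ± 0.27 and Psmb8 at 0.01 ± 0.25 (adjusted p = 0.94 for Psmb8). Tap2, Tapbp and the rest of the group lay between -0.20 and 0.91. The highest was Tap2, and its second probe did not show the difference. That probe read 8.53, 28.8, a value under the floor and 18 with conditioned medium. With unconditioned medium it read 19.8, 18, 61.9 and a value under the floor.

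At 24 h alone the members' median medium effect was 0.19, 19 of 30 members lay above that of all probes (51% of genes did), and limma called 0 of them (0.151% of genes were called higher and 0.161% lower; 0 members and 4.83% of genes had an unadjusted p under 0.05). At 48 h it was 0.40, 22 of 30 lay above (57.3% of genes did), and limma again called 0 (0.1% of genes higher, 0.0603% lower; 6 members and 9.09% of genes with an unadjusted p under 0.05). Isg15 had the smallest p at 48 h (1.57 ± 0.40, adjusted p = 0.12, n = 2 arrays against 2). It passed with cyclic loess normalization (1.61, adjusted p = 0.021) and without time zero replicate 4 (1.57, adjusted p = 0.033). The difference between its effects at 48 h and 24 h was 1.51 ± 0.56 (unadjusted p = 0.0078, adjusted p = 1), and limma called 0 members in that difference, where 0% of genes were called and 1 member and 2.05% of genes had an unadjusted p under 0.05.

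Against time zero, 2 effectors and 1 immunoproteasome subunit rose by 48 h, while several signalling factors had lower values that did not pass the test. All these comparisons share the 4 arrays of time zero and are not independent of each other. At 48 h, averaged over both media, limma called 3 of 30 members higher (7.14% of genes were) and 0 lower (1.19% of genes); the members' median was 0.18, and 18 lay above that of all probes (56.4% of genes did). The share of members called higher was near that of all genes, and 6 members and 20.8% of genes had an unadjusted p under 0.05.

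Oasl rose most. It read 41.5 to 214 on the 4 arrays of 48 h, against 1.99, 7.43, 3.01 and 24.8 at time zero, where 2 of 4 arrays were under the floor (3.54 ± 0.61, adjusted p = 0.00096). Isg15 rose by 1.16 ± 0.28 (adjusted p = 0.011); its time zero arrays read 106, 94.5, 114 and 199, so that the increase over both media came with high values on the 2 conditioned arrays and values within the range of time zero on the 2 unconditioned ones. Psmb8, the immunoproteasome subunit also called LMP7, rose by 1.00 ± 0.25 (adjusted p = 0.013). It read 349 and 394 with conditioned and 329 and 335 with unconditioned medium at 48 h, against 181, 118, 158 and 223 at time zero, all arrays of both media above all of time zero. Oasl and Psmb8 were the 2 members with this order at 48 h, against 8.1% of genes. The calls of Isg15 and Psmb8 were lost without conditioned 48 h replicate 2 (adjusted p = 0.06 and 0.054) or replicate 3 (0.055 and 0.084), and that of Isg15 also without unconditioned 48 h replicate 3 (0.051), with changes of 0.96 to 1.18.

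Other members with the smallest p at 48 h were Ifit3 (2.0 ± 0.79, adjusted p = 0.14) and Psmb9 (0.63 ± 0.31, adjusted p = 0.23) on the higher side. On the lower side were Stat2 (-0.82 ± 0.29, adjusted p = 0.15), Ifi27 (-0.73 ± 0.31, adjusted p = 0.27), Irf7 (-0.78 ± 0.35, adjusted p = 0.30), Irf1 (-0.59 ± 0.28, adjusted p = 0.37) and Mx2 (-0.73 ± 0.43, adjusted p = 0.47). Mx2 read 943 on time zero replicate 4, against 160 to 217 on the group's other arrays. Its second probe was at -0.07 ± 0.38 in a fit without the filter on level, and on the smaller design Mx2 was at 0.4. Ifi27 encodes a small membrane protein induced by interferon, and Irf1 a transcription factor of the interferon gamma response. Stat2 read 463 and 438 with conditioned and 206 and 463 with unconditioned medium at 48 h, against 883, 441, 551 and 713 at time zero. The lower value passed the test without the 3 arrays that stood apart (-0.77, adjusted p = 0.011), with quantile normalization (-0.89, adjusted p = 0.0083) and with cyclic loess normalization (-0.85, adjusted p = 0.0024). It also passed without time zero replicate 4 (-0.92, adjusted p = 0.045) and without unconditioned 48 h replicate 3 (-1.04, adjusted p = 0.041). Without time zero replicate 4, Irf1 passed as well (-0.80, adjusted p = 0.034). A second Irf1 probe of similar intensity was at -0.3 ± 0.31 (adjusted p = 0.77) at 48 h, in a fit of all arrays without the filter on level. Quantile and cyclic loess normalization also called a larger share of all genes lower than the 1.19% of the main fit. Tap1 and B2m were at 0.14 ± 0.27 and 0.16 ± 0.29.

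**Figure D3:**
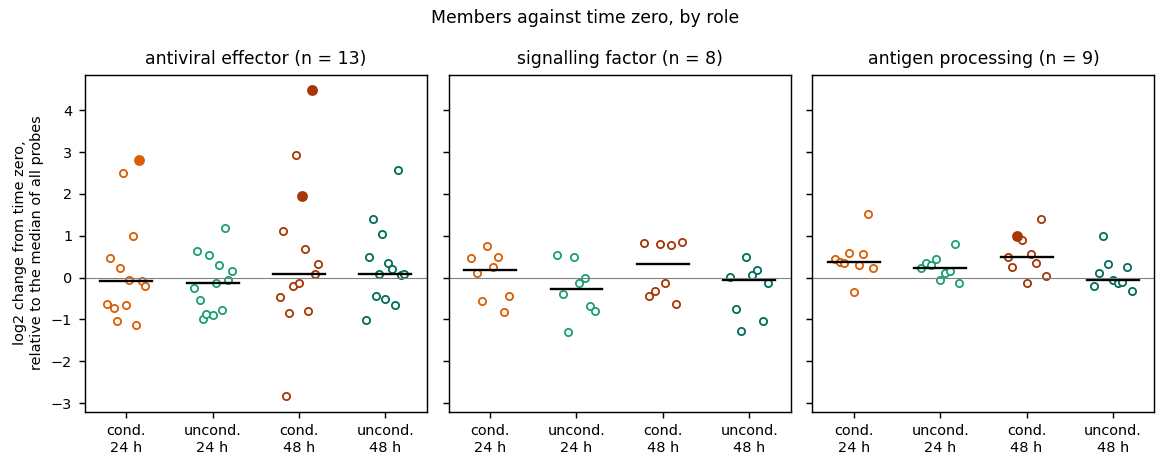
Change of the tested members against time zero in each medium at each time, by role, as log2 differences relative to the median of all probes. Points are genes, filled where limma called them, and lines are medians; the filled points are Oasl with conditioned medium at 24 h (2.81), and Oasl (4.49), Isg15 (1.95) and Psmb8 (1.00) with conditioned medium at 48 h.

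At 24 h, averaged over both media, limma called 0 of 30 members (3.78% of genes were called higher and 0.362% lower; 4 members and 19.6% of genes had an unadjusted p under 0.05). The members' median was 0.06, and 16 lay above that of all probes (57.5% of genes did). In 2 members, Psmb10 and Tap2, all 4 arrays of 24 h lay above all 4 of time zero, against 9.88% of genes. A second Tap2 probe did not show this order. It read 8.53, 28.8, 19.8 and 18 at 24 h, against 28.7, 112, 31.2 and 5.85 at time zero. Oasl (2.01 ± 0.61, adjusted p = 0.06) and Lgals3bp (0.64 ± 0.26, adjusted p = 0.10) had the smallest p, followed on the higher side by Psmb9 (0.53 ± 0.31), Ifit3 (1.52 ± 0.79) and Tap1 (0.37 ± 0.27). Oasl passed without time zero replicate 6, its highest array of that group (2.46, adjusted p = 0.0087). Irf7 (-0.92 ± 0.35, adjusted p = 0.31), Stat2 (-0.74 ± 0.29, adjusted p = 0.36), Mx2 (-0.94 ± 0.43), Ifit1 (-1.0 ± 0.60) and Usp18 (-0.61 ± 0.37) were lowest by p. On time zero replicate 4 Mx2 read 943 and Ifit1 145, against 160 to 217 and 22.4 to 43.4 on the group's other arrays. In a fit without the filter on level, a second Mx2 probe was at -0.01 ± 0.38. On the smaller design Mx2 was at 0.26 and Ifit1 at 1.45. Isg15 was at -0.09 ± 0.28, Psmb8 at 0.33 ± 0.25 and B2m at 0.34 ± 0.29.

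Each medium was also set against time zero by itself. With conditioned medium, limma called Oasl at 24 h (2.81, adjusted p = 0.034; 3.24% of genes were called higher and 0.613% lower, and 4 members and 17.8% of genes had an unadjusted p under 0.05). This call of 1 member was lost without any 1 of 6 arrays: both conditioned arrays of 24 h, both of 48 h, and time zero replicates 3 and 5 (2.49 to 2.99, adjusted p from 0.057 to 0.41). At 48 h with conditioned medium limma called Oasl (4.49 ± 0.74, adjusted p = 0.00073), Isg15 (1.95 ± 0.35, adjusted p = 0.00088) and Psmb8 (1.00 ± 0.31, adjusted p = 0.032), against 7.38% of genes called higher and 0.864% lower. There 9 members and 22.7% of genes had an unadjusted p under 0.05. Psmb8 lost this call without either conditioned array of 48 h or of 24 h or without time zero replicate 5 (0.92 to 1.06, adjusted p from 0.061 to 0.37). It also lost the call without an intensity trend in the fit (adjusted p = 0.055).

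With unconditioned medium limma called 0 members at 24 h (1.07% of genes higher, 0.0904% lower; 1 member and 11.3% of genes had an unadjusted p under 0.05) and 0 at 48 h (2.79% higher, 0.673% lower; 6 members and 14% of genes). Psmb8 had nearly the same change with unconditioned medium at 48 h (0.99 ± 0.31, adjusted p = 0.11) as with conditioned medium. Isg15 was at 0.35 ± 0.35 (adjusted p = 0.77) and Oasl at 2.57 ± 0.74 (adjusted p = 0.077). Irf7 was at -1.27 ± 0.43 (adjusted p = 0.16) with unconditioned and at -0.32 ± 0.43 (adjusted p = 0.89) with conditioned medium at 48 h. Between 48 h and 24 h, over both media, limma called 0 members (0.0201% of genes in each direction; 4 members and 4.73% of genes had an unadjusted p under 0.05).

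The smaller design held 1 array of each medium at each time and 2 of time zero, so its values are described without a test, and its levels cannot be set beside those of the larger design, which was scaled separately. Its floor was an intensity of 14.4, and values under it have no order. Over both times 8 of 12 members past its filter had the same sign of the medium effect as on the larger design, against 64.1% of 4613 shared genes. Without that filter, an alternative chosen after seeing the data, 14 of 21 had the same sign, against 55.7% of 5649 genes. The members' median was 0.04 with the filter and 0.65 without it. For the changes from time zero over both media, 5 of 12 members past the filter had the same sign at 24 h, against 70.3% of shared genes. At 48 h 9 of 12 did, against 78% of shared genes.

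Effectors of the interferon-induced tetratricopeptide family stood out there. Ifit1 read 386 with conditioned and 37.1 with unconditioned medium at 24 h, 318 with conditioned and 43.1 with unconditioned medium at 48 h, and 43.6 and 52.4 at time zero. On the larger design its tested probe read 23.7 to 31.3 with conditioned medium, against 19.3 to 37.2 with unconditioned medium. Each design held a second, dimmer Ifit1 probe that did not pass the filter on level, and the probes differed within a design too. The second probe of the smaller design was under the floor on all 4 arrays of the media and read 30.1 and 27.1 at time zero. That of the larger design was at -1.18 ± 0.62 (adjusted p = 0.64) for the medium in a fit without the filter. Ifit3 read 37.7 and 67.3 with conditioned medium at 24 h and 48 h, against values under the floor with unconditioned medium and at time zero.

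Oasl read 29 with conditioned medium at 24 h and 118 at 48 h, against 33.6 with unconditioned medium at 48 h and values under the floor with unconditioned medium at 24 h and at time zero. Mx2 read 219 and 301 with conditioned medium, against 137 and 126 with unconditioned medium. Its medium effect over both times was 1.29 there and -0.27 on the larger design, so the sign differed. Usp18 and Parp14 were also higher with conditioned medium at both times: Usp18 read 81.6 and 140 with conditioned medium, against a value under the floor and 70.1 with unconditioned medium. Parp14 read 48 and 59.3 with conditioned medium, against a value under the floor and 15.9 with unconditioned medium. Irf7, which did not pass the filter there, read 32.3 and 36.1 with conditioned and 29.1 and 18 with unconditioned medium. Its time zero arrays read 18.2 and a value under the floor. Unlike on the larger design, time zero did not lie above every unconditioned array. Abundant antigen processing genes differed among themselves. Psmb10 read 1814 and 1766 with conditioned medium, against 3470 and 3544 with unconditioned medium. Its time zero arrays read 1548 and 3010, so they lay nearly as far apart as the media. Psme1 read 9046 and 9500 with conditioned medium, against 16333 and 13365 with unconditioned medium. Relative to the median of all probes over both times, Psmb10 was at -0.65 there and at 0.07 on the larger design, and Psme1 at -0.35 there and at -0.20 on the larger design. Lgals3bp read 8286 and 6001 with conditioned medium, against 9222 and 7611 with unconditioned medium, and Psme2 read 4692 and 5543 with conditioned medium, against 5365 and 5546 with unconditioned medium. Relative to the median of the probes past the filter, Lgals3bp was at 0.08 there and at 0.57 on the larger design. Psme2 was at 0.23 there and at 0.43 on the larger design. Without the filter on the smaller design, Lgals3bp was at -0.17 and Psme2 at -0.02. The sign of both on the smaller design therefore depended on that filter.

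**Figure D4:**
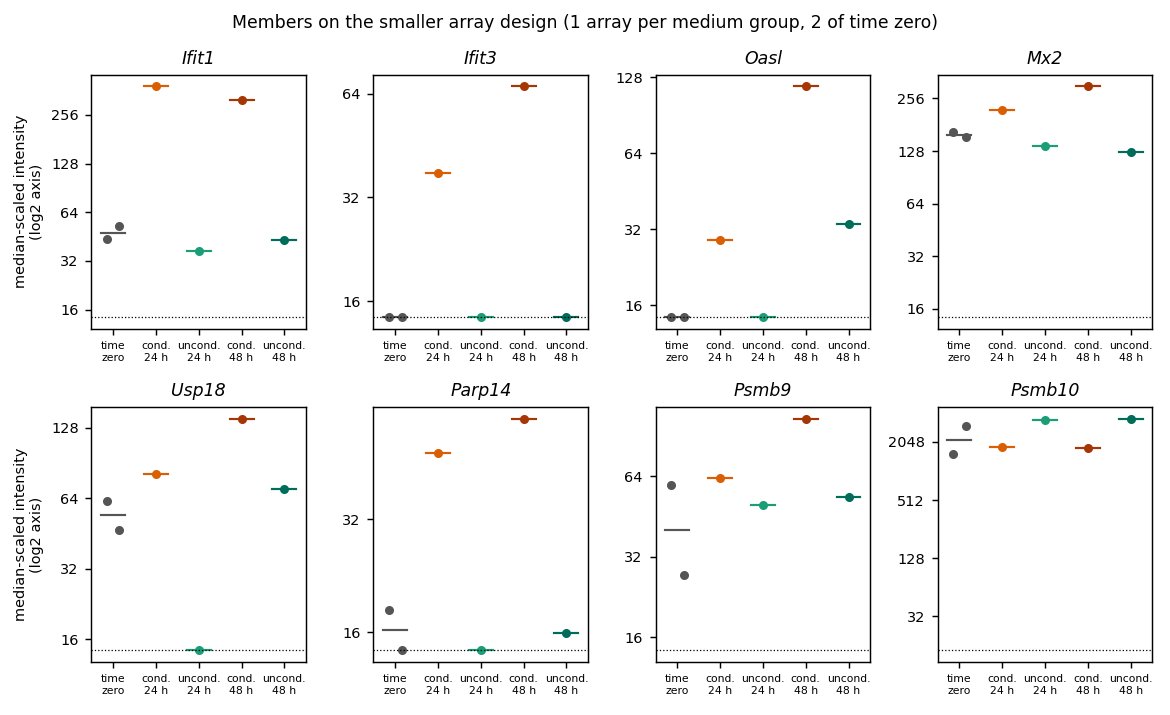
Median-scaled intensity of 8 members on the 6 arrays of the smaller design (log2 axis), with time zero at the left and, within each time, conditioned left of unconditioned medium. Points are arrays, with no replicate of a medium group, lines are group means of log2 values, and the dotted line is the floor of 14.4, at which lower values are drawn; Ifit1, Ifit3 and Oasl are higher with conditioned medium at both times, and Psmb10 is lower.

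Other genes of the pathway were taken from lists of ligands, receptors, kinases and sensors, and of the constitutive proteasome and class I pathway. Of 24 listed genes of interferon ligands, receptors, kinases and sensors, 13 were tested. None was called between the media (median 0.30, 10 of them above that of all probes). Sting1, the adaptor of cytosolic DNA sensing, read 249 and 238 with conditioned medium at 24 h and 413 and 403 at 48 h, against 113 and 151 with unconditioned medium at 24 h and 139 and 254 at 48 h, and its change was 0.92 ± 0.29 (adjusted p = 0.14). It was the only one of the 13 called against time zero over both media, at 24 h (1.21 ± 0.29, adjusted p = 0.0099) and at 48 h (1.95 ± 0.29, adjusted p = 0.00023). Jak2, a kinase of the interferon gamma receptor, rose against time zero with conditioned medium at 24 h (1.31 ± 0.36, adjusted p = 0.03) and at 48 h (1.18 ± 0.36, adjusted p = 0.033).

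Of 29 listed genes of the constitutive proteasome and class I pathway, 19 were tested and none was called between the media (median 0.18, with 15 above). The class I genes RT1-S3 and RT1-N3 were the only ones called against time zero. RT1-S3 rose at 24 h (1.75 ± 0.43, adjusted p = 0.017) and at 48 h (2.50 ± 0.43, adjusted p = 0.00088), and RT1-N3 at 48 h (1.89 ± 0.44, adjusted p = 0.0089). Rat class I genes have near-identical copies, as do genes of the Ifit, Mx and Gbp families, and probe sequences were not analysed here, so signal shared between copies cannot be told apart.

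Markers of other cells moved with some of these comparisons, and their part in the results was not tested. Fewer cells of a type and less RNA per cell cannot be told apart in these cultures. All 15 leukocyte markers were measured and 10 were tested; between the media their median change was -0.40, 2 of them above that of all probes. Cd74, the invariant chain of class II molecules, was called lower with conditioned medium (-3.79 ± 0.54, adjusted p = 0.0014), and none was called higher. Their summed intensity was 1820 to 1830 with conditioned and 1890 to 2180 with unconditioned medium at 24 h, 1330 to 1410 with conditioned and 1580 to 2330 with unconditioned medium at 48 h, and 2000 to 2420 at time zero. Ptprc, which defines leukocytes, was at the floor on 7 of 12 arrays and Lyz2 on all 12.

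Markers of muscle and fibroblasts were lower in median with conditioned medium, none of them called. The 4 smooth muscle markers had a median change of -0.57 over both times, 0 of 4 above that of all probes, and of -1.02 at 24 h. Their summed intensity was 30200 to 33000 with conditioned and 44800 to 53100 with unconditioned medium at 24 h, and 41700 to 44000 with conditioned and 30500 to 39100 with unconditioned medium at 48 h. The 3 tested fibroblast markers of 7 listed had a median of -0.43, 0 of 3 above, and summed to 4080 to 5650 with conditioned and 4900 to 5700 with unconditioned medium at 24 h, and to 5320 to 6100 with conditioned and 6100 to 10600 with unconditioned medium at 48 h. The 10 cardiomyocyte markers had a median of -0.27, 1 of 10 above. They summed to 173000 to 209000 with conditioned and 233000 to 242000 with unconditioned medium at 24 h, and to 177000 to 191000 with conditioned and 158000 to 196000 with unconditioned medium at 48 h. Their part in the medium effect of the members was not tested.

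Of 7 tested endothelial markers, 5 were called higher and 1 lower at 48 h against time zero, and none between the media. Their summed intensity was 2780 to 2940 with conditioned and 2120 to 3400 with unconditioned medium at 48 h, against 984 to 1500 at time zero; Tek changed by 2.79 ± 0.28 (adjusted p = 7.4e-06) and Kdr by -1.89 ± 0.29 (adjusted p = 0.00063). At 48 h 2 of 3 tested fibroblast markers and 3 of 4 smooth muscle markers were also called higher against time zero, beside the increases of Oasl, Isg15 and Psmb8. Among all genes tested, 7.14% were called higher and 1.19% lower in that comparison.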

How the data were processed

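Gene expression was measured in 18 samples on 1-colour CodeLink arrays of 2 designs, with biotin-labelled RNA per the labels. The deposited values are linear intensity; scanner, background correction, normalization and genome build are not given in the sources used here. Array medians ran from 70.3 to 143.6 in the larger table (33849 probes) and from 213.8 to 415.7 in the smaller (9906 probes). The number of arrays limits the precision.

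Each array was scaled to its table's median, floored at 0.05 of it and taken to log2; only probes whose mean exceeded the 30th percentile were kept. limma 3.58.1 under R 4.3.3 fitted 1 model to all 5 groups of the larger table, with lmFit and with an intensity trend in eBayes. A call is an adjusted p under 0.05 by Benjamini-Hochberg over 23694 probes. The pipeline was tested on simulated data. A gene was represented by its probe with the highest mean, among probes annotated to 1 gene (16753 in the larger table, with 165 of several genes and 16931 of none; 7290, 87 and 2529 in the smaller). Oas1a shared its probe with Oas1k and was left out; no probe was annotated to Ifih1, Igtp, Parp9, Xaf1 or Trim25 alone. The tables were kept apart, and no 2 arrays were identical.

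In the comparison of the media over both times and in those at 24 h and 48 h against time zero, every called member was named, filled to 5 in each direction by the smallest p; in the others, every called member up to 5 each way. Isg15, Irf7, Stat2, Psmb8, Tap1 and B2m were always named; members without overlap between groups were named in addition, after their values were seen. Alternatives were quantile and cyclic loess normalization, other filters, floors and a pseudocount, averaged probes, no trend, both tables with the design as a block, and fits without single arrays or without 3 that stood apart. Members, lists and tests were chosen with earlier results of these data known. Replicate numbers follow the order of the samples. Promoters came from RefSeq (GRCr8). Python 3.11.15 with matplotlib 3.10.9 drew the figures.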

Additional observations from a re-analysis of the deposited data

How the results depend on the processing

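Of 898 values of single genes under the alternatives, 835 kept their direction and their side of the threshold, and 250 of 310 counts and medians stayed close to those reported. Counts of called members, in the order medium over both times, 24 h against time zero, 48 h against time zero, conditioned 24 h against time zero and conditioned 48 h against time zero, were 0, 0, 3, 1 and 3, all higher. They were 1, 3, 5, 2 and 5 with quantile and 2, 4, 6, 5 and 8 with cyclic loess normalization, and 0, 3, 6, 4 and 8 without the 3 arrays that stood apart. Of these, 0, 1, 2, 0 and 0 were lower with quantile normalization, 0, 2, 2, 3 and 1 with cyclic loess, and 0, 2, 2, 2 and 2 without the 3 arrays. The share of all genes called grew too: in the same order, 0.683%, 3.78%, 7.14%, 3.24% and 7.38% of genes were called higher as reported, 2.77%, 7.5%, 12.2%, 7.46% and 11.1% with quantile, 4.84%, 8.03%, 13.6%, 8.52% and 12.8% with cyclic loess normalization, and 4.8%, 5.01%, 10.1%, 6.11% and 11.1% without the 3 arrays. For 48 h against time zero, genes called lower were 1.19% as reported, 8.07%, 10.1% and 6.86%. For the counts in the rest of this paragraph the shares of all genes called are not given here. A general change in calls therefore cannot be told apart from one of the members. Unconditioned 48 h against time zero gave 3 with quantile and 5 with cyclic loess normalization, against 0. Cyclic loess also gave 1 call each for the medium at 24 h, the medium at 48 h and 48 h against 24 h. Leaving out the 3 arrays gave 1 call each for the medium at 24 h, unconditioned 24 h against time zero and 48 h against 24 h. No filter gave 0 for conditioned 24 h and 5 for conditioned 48 h. A floor of 0.2 gave 1 call for the medium and 0 for conditioned 24 h, and a pseudocount of 0.5 of the median gave 1 for the medium and 4 for conditioned 48 h. A filter at the 50th percentile, which Oasl did not pass, gave 2 at 48 h and 2 for conditioned 48 h. Both tables together gave 1 at 24 h, 1 at 48 h, 0 for conditioned 48 h and 1 for unconditioned 48 h. No trend gave 1 at 24 h, 4 at 48 h, 2 for conditioned 24 h and 1 for unconditioned 48 h, and 3 for conditioned 48 h, with Ifit3 (adjusted p = 0.013) called and Psmb8 not.

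The members' median medium effect of 0.35 was 0.20 with a filter at the 50th percentile, 0.18 with the pseudocount, 0.22 without the 3 arrays and 0.09 with both tables. That at 24 h against time zero turned to -0.15 with both tables, and that at 48 h was 0.03 with averaged probes and 0.06 with both tables, which hold fewer members; the causes were not tested. Leaving out single arrays gave medians of 0.22 to 0.38 for the medium, 0.02 to 0.18 at 24 h and 0.14 to 0.28 at 48 h. The counts then ran from 0 to 1 for the medium at 48 h, 0 to 1 at 24 h, 1 to 5 at 48 h, 0 to 2 for conditioned 24 h, 2 to 5 for conditioned 48 h and 0 to 3 for unconditioned 48 h, and stayed at 0 in the other comparisons. The shares of all genes called in those fits are not given here. Without the filter on the smaller table, chosen after seeing the data, 14 members had the same sign.

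Values near 0 turned sign. The medium effect of Samhd1 was 0.00 with quantile normalization, 0.03 with no filter, 0.24 with averaged probes, 0.12 without unconditioned 24 h replicate 3 and 0.01 without conditioned 48 h replicate 3. Leaving out single arrays put it between -0.15 and 0.12. That of Stat2 was -0.08 without the 3 arrays, -0.08 to 0.29 without single arrays (-0.08 without unconditioned 48 h replicate 2) and -0.03 with both tables, which gave 0.19 for Mx2 and 0.93 for Ifit1. That of Psmb8 ran from -0.09 to 0.11 without single arrays: -0.09 without unconditioned 48 h replicate 3, -0.05 without unconditioned 24 h replicate 2 and -0.02 without conditioned 48 h replicate 3. Isg15 at 24 h against time zero was 0.06 with quantile normalization and ran from -0.24 to 0.06 without single arrays (0.06 without time zero replicate 6), and B2m at 48 h from -0.05 (without unconditioned 48 h replicate 3) to 0.35. No paired analysis was possible because the labels carry no replicate numbers. Dim members are limited by the floor.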
